A study of Mus musculus with 72 samples.

Results

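The genes Sfi1, Drg1, C130026I21Rik, Mroh2a and Sprr2a2 were examined together because several stretches of each had been listed as differing in 2 methylated forms of histone H3 lysine 27 (H3K27) after stress in the mouse nucleus accumbens. A site belonged to the set when its listed interval touched 1 of the 5 gene models of GENCODE M21 (mouse build mm10), with the 1000 bases upstream of the gene's start counted in. The rule gave 99 sites of the 36113 in the authors' 5 tables of differing sites, from 5 genes of the 21951 protein-coding ones. Sfi1 held 30 of these sites, Drg1 held 11, C130026I21Rik held 39, Mroh2a held 11 and Sprr2a2 held 15, and 7 sites lay in Sfi1 and Drg1 at once. At an adjusted p below 0.05 in the authors' deposited tables, 71 of the sites were lower in the stressed animals, 25 were higher and 3 did not pass. The genes were picked from these same comparisons, so their directions are described below and not tested.

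The mark was measured by CUT&RUN, in which an antibody guides a nuclease to chromatin and the released DNA is sequenced, in nuclei from the nucleus accumbens of wildtype male mice. After chronic social defeat stress, a model in which some mice come to avoid others and some do not, the labels name Susceptible, Resilient and Control groups, with 4 libraries each for H3K27me1, for H3K27me2 and for IgG, the antibody with no target that gives the background. A separate H3K27me1 comparison set 3 libraries labelled Early life stress - Subthreshold defeat (abbreviated ELS below) against 3 labelled Standard - Control. These groups differ in both the early life stress and the defeat, which cannot be told apart in this comparison. The labels give no age, do not say whether a library is 1 animal or a pool, and do not name separate animals, so the spread between libraries may be partly technical. The susceptible and resilient comparisons of a mark used the same 4 control libraries, and both marks used the same IgG libraries.

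H3K27me1, H3K27me2 and H3K27me3 are steps of methylation placed by Polycomb repressive complex 2. H3K27me1 is known from the bodies of transcribed genes, H3K27me2 from broad stretches outside active genes, and H3K27me3 from silenced genes. Sfi1 encodes a centrin-binding protein of the centrosome, Drg1 a GTP-binding protein tied to translating ribosomes, Mroh2a a protein of the maestro HEAT-like repeat family, and Sprr2a2 a small proline-rich protein of the cornified layer of skin and other epithelia. C130026I21Rik lies in the stretch of chromosome 1 that holds Sp110 and Sp140, which encode nuclear-body proteins of immune cells. In a locus with several near-identical copies, a short read may fit more than 1 copy, and a reference with too few copies collects the reads of all of them at the copies it has; whether that bears on these sites was not tested.

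Mean reads per 1000-base bin in the file headers were 20.57 to 30.39 in the H3K27me1 libraries of the defeat experiment, 10.56 to 40.63 in the H3K27me2 libraries and 5 to 7.78 in the ELS experiment. The tables list only differing sites, so the labelled tissue was not checked against marker genes. The H3K27me2 control libraries differed most in depth, from 10.56 in library 52 to 40.45 in library 49. Among those controls, libraries 55 and 58 stood above 49 and 52 at most of the sites of these genes, and the H3K27me2 results are given with and without them. Among the susceptible H3K27me1 libraries, 29 stood low and 32 high at these sites.

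Sequence sharing was read from the GENCODE M21 transcripts, as the share of a gene's 50-base words that also occur in a transcript of another gene. Over genes whose models do not overlap the gene itself, it was 59.1% for Sprr2a2, nearly all of it shared with Sprr2a3, and 21.02% for C130026I21Rik, shared chiefly with Sp140 and Sp110. Sfi1 had 2.20%, Drg1 had 1.20% and Mroh2a had 0, where the median protein-coding gene had 0. With overlapping models counted too, which takes in words read from the same bases under 2 gene names, the shares were 96.5% for Sprr2a2 (Sprr2a1 lies inside its model), 32.9% for C130026I21Rik, 4.57% for Drg1 and 3.98% for Sfi1, and the median was 0.688%. Most of the Drg1 words in that count, 118 of 160, were shared with Sfi1 at the same locus. At 75 bases and without overlapping models, Sfi1 had 0.145% and Drg1 0.284%. By this measure of exons, Sprr2a2 and C130026I21Rik shared sequence with other loci, Sfi1 and Drg1 shared little, and Mroh2a shared no word of that length. Introns, and copies that the reference lacks, were not measured.

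The sharing extends to promoters, shown here because several of the sites described below lie over them. Read length is not given in the sources used here, and the read files carry "unique" in their names, so how reads from such stretches were assigned was not tested. RefSeq promoters (GRCm38.p6) matched 3 of the 5 genes, C130026I21Rik, Mroh2a and Sprr2a2. The 250 bases before the Sprr2a2 start (chr3:92250397-92250646, plus strand) were identical to those before Sprr2a1 (chr3:92215585-92215834), and 222 of them in 1 run also preceded Sprr2a3 (chr3:92285054-92285303, plus strand). C130026I21Rik (chr1:85270567-85270816, minus strand) and Sp140 (chr1:85600453-85600702, plus strand) shared a run of 108 bases. Over all promoters in that table, 2195 of 27025 genes (8.12%) shared a run of at least 50 bases with another gene on the same strand. The capitals mark the longest run shared within each pair.
Sprr2a2: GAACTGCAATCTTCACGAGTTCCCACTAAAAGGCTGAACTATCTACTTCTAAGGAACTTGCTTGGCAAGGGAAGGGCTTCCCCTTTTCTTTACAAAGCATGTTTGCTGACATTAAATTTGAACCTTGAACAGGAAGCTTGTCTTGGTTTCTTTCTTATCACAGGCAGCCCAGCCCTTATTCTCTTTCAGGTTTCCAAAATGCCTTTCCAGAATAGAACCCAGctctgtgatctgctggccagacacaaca
Sprr2a3: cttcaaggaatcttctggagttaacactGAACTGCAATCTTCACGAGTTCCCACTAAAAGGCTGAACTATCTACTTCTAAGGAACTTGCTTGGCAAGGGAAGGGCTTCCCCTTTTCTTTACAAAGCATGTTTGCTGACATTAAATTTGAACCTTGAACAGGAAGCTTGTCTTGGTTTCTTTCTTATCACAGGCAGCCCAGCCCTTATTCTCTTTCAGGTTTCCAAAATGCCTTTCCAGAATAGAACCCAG
C130026I21Rik: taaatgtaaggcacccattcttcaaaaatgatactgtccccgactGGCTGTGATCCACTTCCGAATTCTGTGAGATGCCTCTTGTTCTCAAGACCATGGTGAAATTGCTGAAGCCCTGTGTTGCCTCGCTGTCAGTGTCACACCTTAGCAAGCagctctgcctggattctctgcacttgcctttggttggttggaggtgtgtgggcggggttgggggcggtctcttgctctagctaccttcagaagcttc
Sp140: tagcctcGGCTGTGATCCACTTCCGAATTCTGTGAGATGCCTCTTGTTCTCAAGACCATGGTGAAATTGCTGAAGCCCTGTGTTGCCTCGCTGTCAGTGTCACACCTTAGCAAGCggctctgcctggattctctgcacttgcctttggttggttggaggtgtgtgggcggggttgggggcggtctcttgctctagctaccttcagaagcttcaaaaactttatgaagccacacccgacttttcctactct

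The gene models bear on which gene a site belongs to. GENCODE places Drg1 at chr11:3187360-3266415 and RefSeq at chr11:3249907-3266464, and none of the 11 Drg1 sites lay in the RefSeq model. Most of them lay at or just beyond the start of Sfi1 (GENCODE chr11:3131850-3193463, RefSeq chr11:3131850-3203347, minus strand), and 2 lay inside Eif4enif1, which encodes a transporter of the translation factor eIF4E. For C130026I21Rik, GENCODE gives chr1:84992690-85270566 and RefSeq chr1:85241286-85282883, which left 28 of its 39 sites outside the RefSeq model. Its promoter as printed above (chr1:85270567-85270816) precedes the GENCODE start and lies inside that RefSeq model, and promoter sites of this gene are named by that stretch. For Sprr2a2, GENCODE gives chr3:92215920-92256724, which spans Sprr2a1, and RefSeq chr3:92250647-92257304, which left 11 of its 15 sites outside. Sfi1 and Mroh2a (chr1:88226986-88262289) kept all of their sites under both annotations.

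The sites of Sfi1 and Drg1 stood far above the other sites both in read level and in background. In control libraries of the susceptible H3K27me1 table, the median mark level was 1502 normalised reads per kb at the 5 Sfi1 sites and 2288 at the 4 Drg1 sites, against 87.4 at the 12110 sites outside the set. These are 17.2 and 26.2 times the level elsewhere. The IgG background implied by the authors' enrichment values was 455 and 714 reads per kb, against 31.2 elsewhere, which is 14.6 and 22.9 times. C130026I21Rik stood 2.45 times higher in mark and 2.65 times in IgG, Mroh2a 2.13 and 3.66 times. At Sprr2a2 the mark was 0.55 times the level elsewhere and the IgG 4.56 times.

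**Figure D1:**
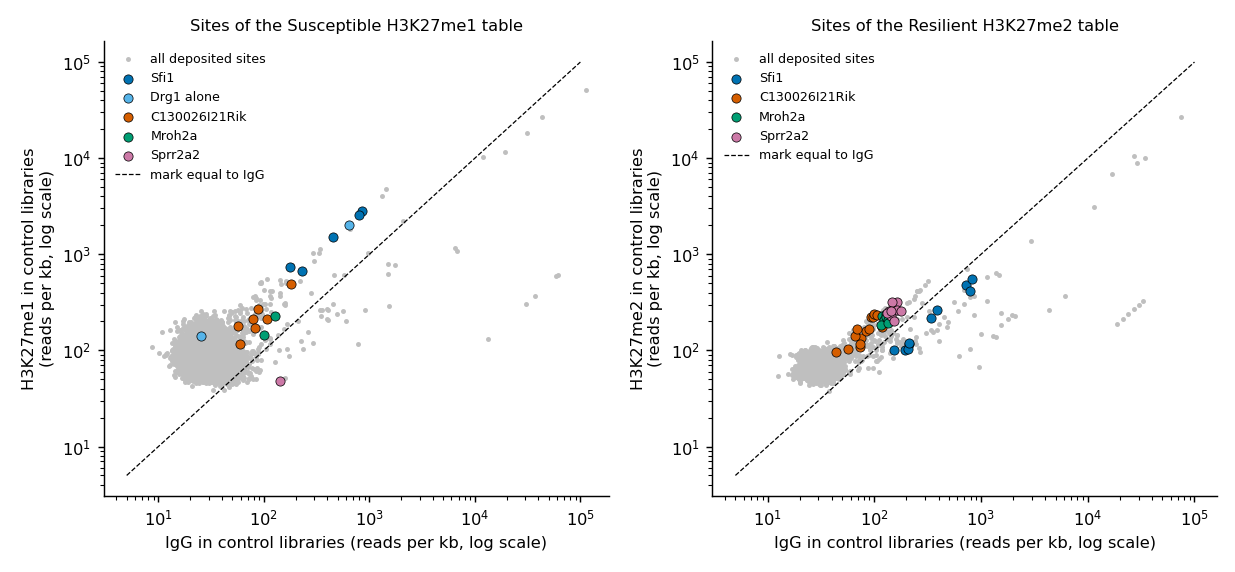
Mark level (vertical axis) against IgG level (horizontal axis) in control libraries, both in normalised reads per kb on log scales, for every site of the susceptible H3K27me1 table (left) and the resilient H3K27me2 table (right); grey points are all sites, coloured points the 5 genes, and the dashed line marks equal mark and IgG. Sfi1 sites lie above the line for H3K27me1 and below it for H3K27me2, to the right of most sites in both panels.

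The marks differed in their standing over that background. In the authors' deposited tables, H3K27me1 at Sfi1 in the control group was 2.89 to 4.18 times the IgG level (5 sites for susceptible mice). It was 2.73 times at the 1 site for resilient mice and 1.51 to 2.43 times at the 7 ELS sites. H3K27me2 at Sfi1 was 0.50 to 0.71 times (susceptible table, 7 sites) and 0.50 to 0.67 times (resilient table, 10 sites). H3K27me2 was below IgG in both groups at all 18 H3K27me2 sites of Sfi1 and Drg1 in the 2 tables. Over all sites of those tables the share below IgG in both groups was 3.42% and 1.97%. The 4 H3K27me1 sites of Sprr2a2 were also below IgG in both groups, where 0.355% and 0.456% of all sites of the susceptible and resilient tables were.

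Of the 17 H3K27me1 sites in the susceptible comparison, 16 were lower and 1 was higher at the authors' adjusted p below 0.05. Called sites there equalled 4.48% of the 270324 windows counted in the authors' p adjustment, 2.23% lower and 2.26% higher. A site can span several windows, so this is a ratio of counts and not the share of windows called. Of the called sites, 49.7% were lower. These shares set the background for the counts and nothing is read from them, since the genes were chosen on this contrast. All 5 Sfi1 sites were lower, by log2 0.08 to 0.16 in the authors' deposited table, as were 4 Drg1 sites, 7 C130026I21Rik sites and 2 Mroh2a sites, while the Sprr2a2 site was higher. The median change over the 17 sites was -0.24 on the log2 scale, against 0.26 over the other 12110 sites. Log2 changes with an SE come from limma on log2 of the normalised reads plus 1, fitted over all sites of a table. Limma draws the variance of each site toward that of all sites in the table. The SE is therefore not the spread at that site alone, and can exceed it where the libraries lie close together.

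**Figure D2:**
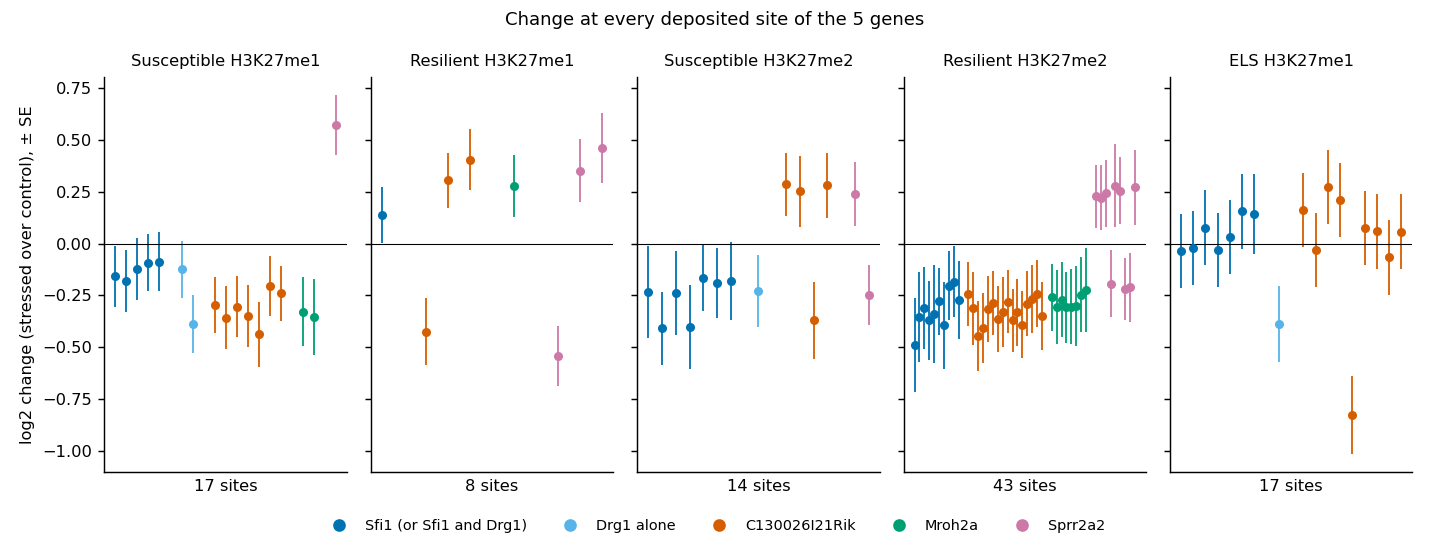
Log2 change (stressed over control, vertical axis) with its SE at each of the 99 sites, in 1 panel per table, ordered along each gene and coloured by gene. Sfi1, C130026I21Rik and Mroh2a sites lie below 0 in the susceptible H3K27me1 and resilient H3K27me2 panels, most Sprr2a2 sites lie above 0, and the ELS Sfi1 sites lie between -0.04 and 0.16.

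At the Sfi1 site with the smallest adjusted p in the susceptible H3K27me1 table (chr11:3130401-3132600, over the last exon and the stretch beyond it, where the pseudogene Pisd-ps1 lies), susceptible libraries 26, 29, 32 and 35 had 1351, 1195, 1827 and 1525 normalised reads. Control libraries 25, 28, 31 and 34 had 1593, 1502, 1807 and 1613. Libraries 26 and 29 lay under all controls and library 32 above all of them, so the groups overlapped. The change was -0.16 ± 0.15 (SE, n = 4 and 4) on the log2 scale, -0.063 without library 29 and -0.27 without library 32.

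The site with the most reads lay upstream of the GENCODE start of Sfi1, inside the GENCODE model of Drg1 (chr11:3195501-3200500, intron). Susceptible libraries had 8796, 7834, 10269 and 9940 normalised reads there, and control libraries had 9613, 9473, 10125 and 10769.5. The change was -0.12 ± 0.14, and -0.049 without library 29. Its adjusted p, listed as 0 in the authors' deposited table, comes from the G-test that the file headers name. Like the other adjusted p of the 4 defeat tables, it is not read here as a measure of the spread between libraries. Library 32 again lay above 3 of the 4 controls, and the groups overlapped. In the pair of sites shared by Sfi1 and Drg1, at chr11:3188801-3189900 and chr11:3193601-3195300, the changes were -0.092 ± 0.14 and -0.087 ± 0.14, with adjusted p of 0.000321 and 0.000132 in that table. Of the 12122 called sites, 8 (0.0660%) had an absolute log2 change below 0.1 in the authors' values, and this pair was among them.

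The Drg1 site inside Eif4enif1 stood apart from the others. At chr11:3220001-3221200 susceptible libraries had 119, 115, 155 and 125 normalised reads and controls had 156, 190.1, 162 and 162. Every susceptible library lay under every control, and the change was -0.39 ± 0.14. Its level of 140 reads per kb and IgG of 25.2 reads per kb were like those of sites elsewhere, and its enrichment over IgG was 5.54 in control libraries and 3.66 in susceptible ones. The ELS table lists an overlapping site at chr11:3219501-3220500, also lower, with 82.6, 101 and 91.7 reads in libraries 40, 44 and 48 against 123, 115 and 123 in libraries 37, 41 and 45, a change of -0.39 ± 0.18. The ELS groups did not overlap either.

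The lower H3K27me1 sites of C130026I21Rik were spread from chr1:85010101 to the promoter. At chr1:85086801-85087900 (intron, also inside A530032D15Rik), susceptible libraries had 139, 174, 215 and 212 reads and controls had 258, 236, 196 and 250.3, a change of -0.36 ± 0.15 with overlap through control library 31, and -0.23 without library 26. At chr1:85171001-85172200 (intron), susceptible libraries had 99.8, 74.0, 125 and 119 reads and controls had 132, 135, 126 and 165, a change of -0.44 ± 0.16 with no overlap. At the promoter site (chr1:85269201-85271000), susceptible libraries had 384, 377, 459 and 424 reads and controls had 494, 485, 458 and 499.7. That change was -0.24 ± 0.13, and library 32 lay just above control library 31. A site that begins at the Sp140 start (chr1:85600701-85602300) and covers only the last bases of the promoter printed above was lower as well, at 204 ± 22.7 (SD, n = 4) against 252 ± 12.3 (SD, n = 4).

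Both Mroh2a sites lay over exons. At chr1:88232601-88234000 susceptible libraries had 220, 188, 368 and 257 reads against 348, 263, 302 and 352 in controls, a change of -0.33 ± 0.17. It was -0.19 without library 29 and -0.51 without library 32. At chr1:88243301-88244400 they had 119.5, 87.6, 151 and 135 against 165, 100.2, 209 and 167, a change of -0.35 ± 0.18. Library 32 lay inside or above the controls at both, so the groups overlapped. The Sprr2a2 site (chr3:92221501-92222500, intron) went the other way, with 75.1, 67.7, 68.97 and 73.9 reads against 45.97, 48.4, 38.4 and 60.4, no overlap and a change of 0.57 ± 0.14, at 0.34 times the IgG level in controls and 0.45 times in susceptible libraries.

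Library spread at these sites was wide against the size of the changes. In the susceptible H3K27me1 table the library values of the groups did not overlap at 4 of the 17 sites, while 52.8% of all called sites had no overlap. Over the 16 lower sites, the median log2 ratio to the control mean was -0.38 in library 26, -0.45 in library 29, 0.024 in library 32 and -0.12 in library 35. At the 6009 lower sites outside the set the same medians were -0.45, -0.53, -0.34 and -0.39, so library 32 was low there. At the 5 Sfi1 sites library 32 had a median of 0.16 and was the highest of all 8 libraries at 4 of them. Without library 29, the median change of the Sfi1 sites was -0.027 in place of -0.12, with 5 of 5 still lower, and without library 32 it was -0.22.

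**Figure D3:**
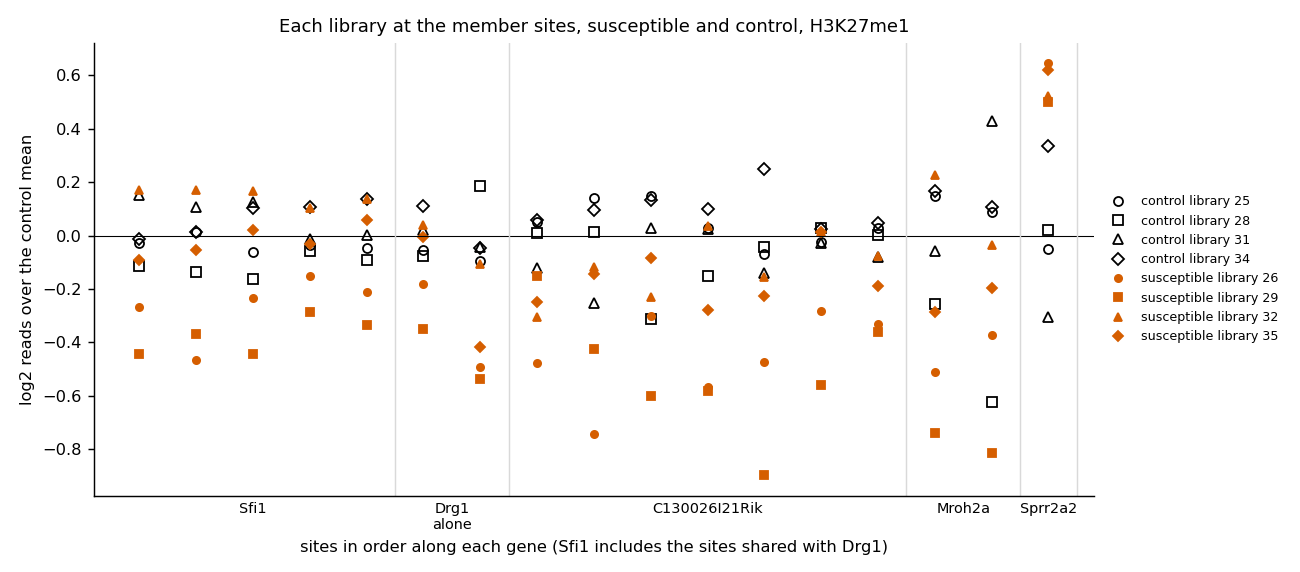
Log2 normalised reads of each library over the mean of the control libraries (vertical axis) at the 17 sites of the susceptible H3K27me1 table, grouped by gene; open symbols are the 4 control libraries and filled symbols the 4 susceptible ones. Susceptible library 32 (filled triangles) is the highest library at 4 of the 5 Sfi1 sites, and libraries 26 and 29 are below them.

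The implied IgG background also differed between the groups at these sites. In the susceptible H3K27me1 table it was higher in the susceptible group at 16 of the 17 sites, with a median ratio of 1.20. The Sprr2a2 site, where the mark was higher, was among them, with a ratio of 1.12. At the 5 Sfi1 sites of the susceptible H3K27me1 table the implied IgG level was 1.21 times higher (median) in the susceptible than in the control group, and higher at 5 of 5. The median over the sites outside the set was 1.02. The mark's enrichment over IgG at Sfi1 was 3.30 in controls and 2.45 in susceptible libraries (medians), a larger gap than the mark itself showed. The files give IgG as group means, so its spread between libraries is unknown, and its part in the result was not tested.

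In resilient mice the H3K27me1 pattern was different. There were 8 sites, 2 lower and 6 higher. Called sites in that table equalled 2.54% of the number of windows counted, 1.23% lower and 1.31% higher, and 48.3% of the called sites were lower. Drg1 had none. The Sfi1 site (chr11:3172201-3173600, intron) had 1049, 1034, 1151 and 1173 reads in resilient libraries 27, 30, 33 and 36 against 922, 969, 988 and 1133 in controls, a change of 0.14 ± 0.13 with overlap. The Mroh2a site (chr1:88239501-88240500, exon) had 265, 237, 288 and 229 reads against 231, 155, 252 and 212, a change of 0.28 ± 0.15 that was 0.14 without control library 28. Implied IgG was lower in the resilient than in the control group at 8 of 8 sites, with a median ratio of 0.89 against 1.05 elsewhere.

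C130026I21Rik had 3 H3K27me1 sites in resilient mice, all in introns. At chr1:85161101-85162300 the reads were 222, 235, 231 and 215 in resilient libraries against 194, 169, 204 and 165 in controls, higher by 0.30 ± 0.13 with no overlap. At chr1:85191501-85192700 the change was 0.41 ± 0.15 and at chr1:85002501-85003500 it was -0.42 ± 0.16, both with overlap. Sprr2a2 had 1 lower site, at chr3:92219401-92220400, with 51.9, 41.01, 61.7 and 55.9 reads against 69.8, 73.5, 71.96 and 91.8 and no overlap, a change of -0.54 ± 0.15. Its 2 higher sites, at chr3:92228901-92230100 and chr3:92239101-92240100, had changes of 0.35 ± 0.15 and 0.46 ± 0.17 with overlap. Across the 8 sites 2 had no overlap, against 54.7% of all called sites. None of the 8 had an absolute log2 change below 0.1, as 0.0857% of the called sites had.

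H3K27me2 in susceptible mice gave 14 sites, 10 lower and 4 higher. Called sites equalled 4.30% of the number of windows counted, 1.31% lower and 2.98% higher, and 30.6% of the called sites were lower. Sfi1 had 7 lower sites and Drg1 had 3, of which 2 were shared, while Mroh2a had none. At the leading site (chr11:3191601-3194600, over the first exon of Sfi1), susceptible libraries 50, 53, 56 and 59 had 979.6, 1165, 1071 and 971 reads. Control libraries 49, 52, 55 and 58 had 924, 985, 1667 and 1293. Controls 49 and 52 lay among or under the susceptible libraries and controls 55 and 58 above them, and the change was -0.18 ± 0.19, -0.016 without control 55 and -0.30 without control 49. The site of the largest change, chr11:3140201-3141200, had 81.4, 77.1, 71.5 and 101 reads against 91.8, 99.2, 142 and 110.4, a change of -0.41 ± 0.17 with overlap.

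Sites of C130026I21Rik went mostly up in this table. The site at chr1:85082601-85083800 (intron) had 236, 214, 221 and 191 reads against 172, 161, 182 and 191, higher by 0.29 ± 0.15, and chr1:85252801-85254400 (exon) was higher by 0.28 ± 0.16. The 1 lower site, chr1:85168401-85169400, had 126, 86.4, 87.1 and 87.1 reads against 109, 119, 168 and 106, a change of -0.37 ± 0.19. At Sprr2a2 the promoter site (chr3:92249401-92251100) was lower, with 411, 393, 390 and 431 reads against 502, 489, 486 and 453, no overlap and a change of -0.25 ± 0.14. An intron site (chr3:92236401-92237600) was higher by 0.24 ± 0.15. The promoter site was the 1 site of the 14 without overlap, against 57% of all called sites.

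H3K27me2 in resilient mice gave the most sites, 43, of which 37 were lower and 6 higher. Called sites equalled 8.84% of the number of windows counted, 1.81% lower and 7.03% higher, and 20.5% of the called sites were lower. Sfi1 had 10 lower sites, with all 3 Drg1 sites among them, C130026I21Rik had 16, Mroh2a had 8 and Sprr2a2 had 3. The 6 higher sites were all in Sprr2a2. The median change over the 43 sites was -0.29, against 0.49 over the other 4616 sites, and the groups did not overlap at 6 of them, against 58.6% of all called sites.

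At the leading Sfi1 site of the resilient table (chr11:3183801-3188500, exons of Sfi1 and the end of the GENCODE Drg1 model), resilient libraries 51, 54, 57 and 60 had 1795, 1824, 1797 and 2407 reads. Controls 49, 52, 55 and 58 had 1880, 2084, 2672 and 2372 reads. Library 60 lay with the upper controls and the change was -0.20 ± 0.17, -0.12 without control 55 and -0.31 without library 60. At chr11:3191601-3197000 the resilient libraries had 1601, 1624, 1790 and 2294 reads against 1697, 1886, 2949 and 2411, a change of -0.27 ± 0.19. At chr11:3131401-3133300, the site of the largest change, they had 138, 126, 132 and 225 against 145, 176, 300.1 and 264, a change of -0.49 ± 0.23. The groups overlapped at each of these sites.

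**Figure D4:**
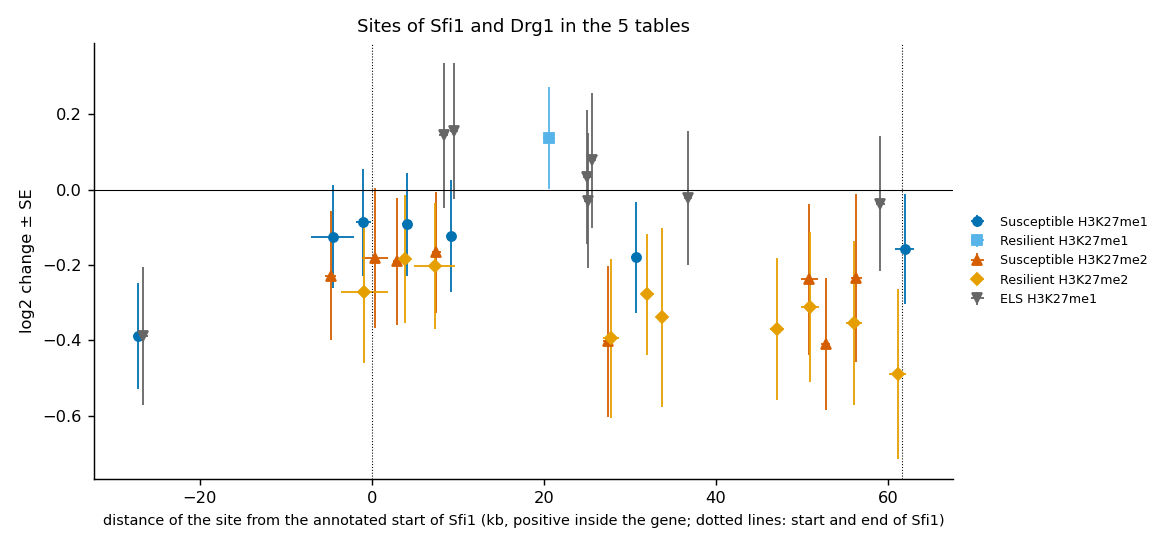
Log2 change with its SE (vertical axis) at the Sfi1 and Drg1 sites by distance from the annotated Sfi1 start (horizontal axis, kb; horizontal bars give site length), coloured by table; dotted lines mark the start and end of Sfi1. The H3K27me2 sites and the susceptible H3K27me1 sites lie below 0 along the gene, and the ELS and resilient H3K27me1 sites inside it lie between -0.04 and 0.16.

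Of the 16 C130026I21Rik sites, which were all lower in resilient mice, 4 had no overlap. At chr1:85120201-85121600 (intron) resilient libraries had 139, 155, 161 and 149 reads against 179, 200.5, 225 and 179, a change of -0.37 ± 0.15. At chr1:85043501-85044500 (intron) they had 67.3, 76.1, 63.4 and 69.98 against 83.8, 77.3, 125 and 97.7, the gene's largest change in this table, -0.45 ± 0.17. The leading site by adjusted p, chr1:85025901-85028400 (intron), had 288, 262, 236 and 275 reads against 297, 246, 398 and 402, a change of -0.31 ± 0.18 with overlap. At the promoter (chr1:85269901-85270900) the level was 130 ± 17.1 (SD, n = 4) against 166 ± 24.01 (SD, n = 4), and at a site over the Sp140 promoter (chr1:85599301-85601200) it was 309 ± 41.7 against 391 ± 68.3 (SD, n = 4 each).

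All 8 Mroh2a sites lay over exons and reached from the promoter to the last part of the gene, and the groups overlapped at each. The longest, chr1:88251901-88257000, had 737, 681, 771 and 721 reads in resilient libraries against 691, 713, 1358 and 959.9 in controls, a change of -0.30 ± 0.19 that was -0.10 without control 55. Controls 49 and 52 lay within the range of the resilient libraries and controls 55 and 58 above it. At chr1:88244701-88248400 the values were 721, 559, 656 and 666 against 605, 719.8, 1084 and 868, a change of -0.30 ± 0.18. At chr1:88233601-88236200 they were 479.7, 403, 472 and 539 against 499, 459, 776 and 647, a change of -0.31 ± 0.18.

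Sprr2a2 sites went both ways within the same table. Its leading site (chr3:92256601-92258800, over the last exon and beyond) was higher, with 659.6, 767, 687 and 586 reads in resilient libraries against 665, 710.1, 422 and 481 in controls, a change of 0.27 ± 0.18 that was 0.14 without control 55. Here controls 55 and 58 were the low ones. Of the promoters with identical sequence, the Sprr2a1 copy lay in a higher site (chr3:92214401-92216100), at 448 ± 11.3 (SD, n = 4) against 384 ± 41.6 (SD, n = 4), and the Sprr2a2 copy in a lower one (chr3:92250001-92252300), at 513 ± 36.03 against 596 ± 45.3 (SD, n = 4 each). The groups did not overlap at either. Both intervals are wider than the identical stretch, so part of each count comes from sequence outside it.

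**Figure D5:**
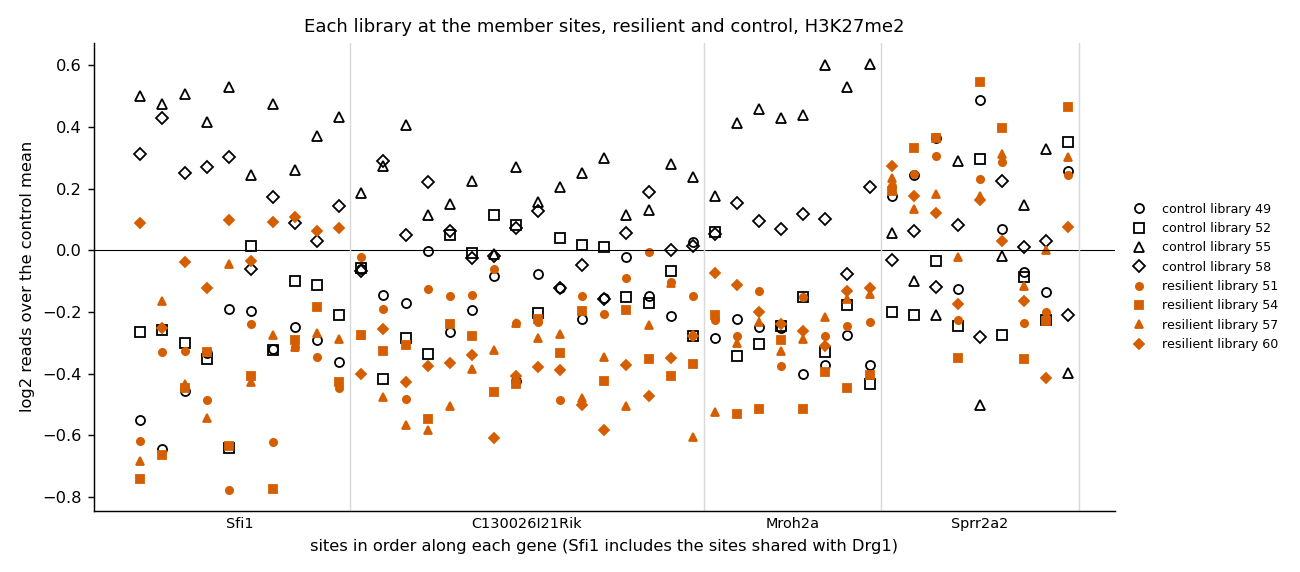
Log2 normalised reads of each library over the mean of the control libraries (vertical axis) at the 43 sites of the resilient H3K27me2 table, grouped by gene; open symbols are the 4 control libraries and filled symbols the 4 resilient ones. Control libraries 55 (open triangles) and 58 (open diamonds) lie above 49 and 52 at most Sfi1 and Mroh2a sites and below them at several Sprr2a2 sites.

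The H3K27me2 differences at Sfi1 and Mroh2a ran along a split within the controls. Control library 55 was the highest of all 8 libraries at 33 of the 37 lower sites in the resilient table, and at 348 of the 916 lower sites outside the set. At 10 of 10 Sfi1 sites and 8 of 8 Mroh2a sites it was the highest. Over the 37 sites the median log2 ratio to the control mean was -0.25 in control 49, -0.21 in control 52, 0.28 in control 55 and 0.054 in control 58. It ranged from -0.38 to -0.24 in the 4 resilient libraries, so controls 49 and 52 lay near the stressed libraries. In the susceptible table library 55 was highest at 9 of the 10 lower sites, against 121 of 625 elsewhere.

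Leaving those controls out gave different values by gene. Without libraries 55 and 58, a choice made after the values were seen, 5 of the 10 Sfi1 sites and 5 of the 8 Mroh2a sites of the resilient table were still lower, with median changes of -0.0061 and -0.021, and all 16 C130026I21Rik sites were still lower, with a median of -0.21. All 3 Sprr2a2 sites were still lower, with a median of -0.031, and 1 of the 3 Drg1 sites. The lower sites outside the set kept their direction at 94.4% under the same choice, with a median of -0.46 against -0.47 with all libraries. Libraries 55 and 58 were picked because they were the high controls at sites of these genes. A larger shift there than outside the set was built into the choice, so nothing is read from that contrast. Among susceptible mice 3 of the 7 Sfi1 sites were still lower, with a median of 0.015. Without library 55 alone the median at Sfi1 was -0.18 in place of -0.33 in the resilient table and -0.076 in place of -0.23 in the susceptible one, with 10 of 10 and 7 of 7 sites lower. These comparisons share the controls, so they do not count as separate evidence.

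Control spread for H3K27me2 was wide at Sfi1 and Mroh2a in the resilient table, but not over the whole set. The median coefficient of variation over control libraries was 27.7% at Sfi1 and 25.4% at Mroh2a, against 19.6% at the sites outside the set. It was 20.1% at Drg1, 16.6% at Sprr2a2, 13.4% at C130026I21Rik and 17.6% over all 43 sites. Over resilient libraries it was 14.9% at Sfi1, 9.93% at Mroh2a and 10.1% elsewhere. In the H3K27me1 table of susceptible mice the wide group was the stressed one, with 18.4% in susceptible and 6.95% in control libraries at Sfi1, against 13.4% and 12.5% elsewhere.

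Implied IgG at the H3K27me2 sites also depended on the comparison. At Sfi1 it was 1.18 times higher (median) in the susceptible than in the control group, at 7 of 7 sites, against 0.93 elsewhere. In the resilient table the ratio was 0.96 at Sfi1 and 0.94 elsewhere. The control IgG libraries were the same in both, and the part of IgG in the H3K27me2 result was not tested.

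In the ELS comparison 17 sites were listed and 14 passed the threshold, 6 lower and 8 higher. Called sites there equalled 0.768% of the number of windows counted, 0.254% lower and 0.515% higher, and 33% of called sites were lower. Sfi1 had 3 lower and 4 higher sites, of which 5 had an absolute log2 change below 0.1 in the authors' deposited table, as had 42 of all 9893 called sites (0.425%). At chr11:3167901-3168900 (intron) libraries 40, 44 and 48 had 232, 235 and 245 reads and libraries 37, 41 and 45 had 236, 219 and 241, a change of 0.034 ± 0.18 with overlap and an adjusted p of 7.81e-07 in that table. It was 0.011 without library 48, -0.0072 without library 41 and 0.061 without library 45. The groups did not overlap at 6 of the 14 called sites, against 99.0% of all called sites in the table.

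C130026I21Rik held the ELS site of the largest change. At chr1:85167301-85168400 (intron) libraries 40, 44 and 48 had 44.7, 54.1 and 42.1 reads against 86.9, 85.5 and 78.5, with no overlap and a change of -0.83 ± 0.19. Enrichment over IgG there was 1.31 in controls and 0.83 in the stressed group. The 3 sites of the smallest adjusted p were higher, by 0.16 ± 0.18 at chr1:85004501-85005500, 0.075 ± 0.18 at chr1:85242801-85243800 and 0.21 ± 0.18 at chr1:85100501-85101500. The groups overlapped at chr1:85242801-85243800 and did not overlap at chr1:85004501-85005500 or chr1:85100501-85101500. Mroh2a and Sprr2a2 had no site in this comparison.

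Merging overlapping sites over the 5 tables gave 66 stretches, of which 22 were listed in 2 or more tables, 44 had only lower calls, 15 only higher calls and 7 both. Over all 36113 sites, merging gave 33605 stretches, of which 2330 (6.93%) were listed in 2 or more tables. The susceptible and resilient tables of a mark share their control libraries, and the genes were chosen for repeated sites, so nothing is read from the recurrence or the like direction. Sfi1 had 16 stretches, 7 of them in 2 or more tables and 13 with only lower calls. The stretch at chr11:3183401-3188500 was listed in 4 tables, lower in the susceptible H3K27me1 table and both H3K27me2 tables and higher after ELS. C130026I21Rik had 30 stretches, 8 of them in 2 or more tables. The stretch at chr1:85167301-85169700 was lower in 3 tables, both H3K27me2 tables and the ELS table.

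A list of 25 genes, 24 of them annotated, held neighbours of the 5 genes and the Pisd family, of which Pisd (chromosome 5) and Pisd-ps2 (chromosome 17) lie elsewhere. Genes of the list on the chromosomes of the 5 genes had 7 lower and 0 higher calls for susceptible H3K27me1, 2 of them at sites of the 5 genes, and 8 lower and 0 higher for resilient H3K27me2. Their calls were 2 lower and 2 higher for resilient H3K27me1, 2 lower for susceptible H3K27me2, and 1 lower, itself a Drg1 site, and 1 higher after ELS. Pisd had 3 lower calls for susceptible H3K27me1 and Pisd-ps2 had 2 lower for resilient H3K27me2. In the resilient H3K27me2 table the neighbours called were Pisd-ps1, Hjurp, which encodes the chaperone of the centromeric histone CENP-A, and Trpm8, the cold-sensing ion channel. Pisd-ps1, next to Sfi1, had H3K27me2 at 301 ± 38.9 in resilient libraries against 452 ± 191 in controls (SD, n = 4 each) at chr11:3126301-3129300, and the control SD shows the same wide spread. Trpm8, 15372 bases from Mroh2a with Hjurp between them, had 273 ± 17.5 against 358 ± 67.97 (SD, n = 4 each) at chr1:88286401-88289100. Of the 27 listed paralogues, 26 were annotated, and those with a site had 6 lower and 1 higher calls in the susceptible H3K27me1 table, 2 of the 7 at sites of the 5 genes, and 9 lower and 3 higher in the resilient H3K27me2 table, 7 of the 12 at such sites. They had 1 lower call in the resilient H3K27me1 table, at such a site, 3 higher in the susceptible H3K27me2 table, 2 of them at such sites, and 4 higher after ELS, 1 of them at such a site. A site of Sp110 (chr1:85588101-85589700) had 229 ± 47.2 reads in susceptible libraries against 287 ± 25.5 in controls (SD, n = 4 each). Of 10 centrosome genes whose products work with Sfi1, 1 had a call in the susceptible H3K27me1 table, Pcnt, lower at 115 ± 19.01 against 147 ± 15.8 (SD, n = 4 each). After ELS 3 of the 10 had a higher call, and in the other tables none had a call. Over 21924 protein-coding genes, 15.2% had a lower call and 7.97% a higher call for susceptible H3K27me1. These shares were 10.1% and 7.75% for resilient H3K27me1 and 0.374% and 0.483% for susceptible H3K27me2. For resilient H3K27me2 they were 0.566% and 0.780%, and after ELS 5.49% and 9.56%. They count genes, while the neighbour and paralogue counts are of sites, many of them close together, so nothing is read from those counts. A list of 10 genes is too short for its counts to be read.

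Over sites with a mean above 10 times the table's median, 22 of 28 were lower for susceptible H3K27me1, 21 of 21 for susceptible H3K27me2 and 27 of 27 for resilient H3K27me2, where 49.7%, 30.6% and 20.5% of called sites were lower. Sfi1 and Drg1 supplied 5, 1 and 2 of these sites. For resilient H3K27me1 12 of 18 were lower, and after ELS 18 of 34. The groups overlapped at all 28 and all 21 of the first sets, and did not overlap at 1 of the 27. Whether read level or sequence copies bear on these directions was not tested.

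The library profile of the leading Sfi1 H3K27me2 site in the resilient table was compared with the leading site of 258 other protein-coding genes over the 8 libraries, as a description. The closest were E030030I06Rik with a Pearson r of 0.96, Aida with 0.93, Tmem267 with 0.91, Zfp600 with 0.90 and Nkain3 with 0.89. The median gene had -0.35, in a table where 20.5% of called sites were lower. All 5 were lower in the authors' table, but they were picked for likeness to a lower site, so nothing is read from their direction. Of the 5, E030030I06Rik, Aida and Tmem267 lay below IgG as Sfi1 did, at 0.57, 0.46 and 0.62 times in controls. E030030I06Rik had 533, 479, 477 and 640 reads in libraries 51, 54, 57 and 60 against 516, 606, 791 and 656 in controls 49, 52, 55 and 58. The next site of the same locus (chr11:3191601-3197000, like the first in both Sfi1 and Drg1) had an r of 0.97 and is no separate gene. Among the other genes of the set, Mroh2a had 0.75, C130026I21Rik 0.70 and Sprr2a2 -0.87. All of these points share the same libraries and control split.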

How the data were processed

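CUT&RUN reads were processed by the authors; the submitters' processing notes name Trim Galore 0.6.5, cutadapt 2.10, Bowtie2 2.4.1, SAMtools 1.10, MACS2 2.2.6 and mm10. The deposited tables were written by diffReps, per the file headers, from read files whose names carry "unique" and "rmdup", in windows of 1000 bases moved by 100 with a p limit of 0.0001. The headers name a G-test for the 4 defeat tables and a negative binomial test for the ELS table. Per the file headers, each library's reads were divided by a constant to give normalised reads, a signal whose group mean the authors also deposited. The authors also deposited, for each group, the fold of the mark over its IgG libraries as a ratio, and their deposited log2 change, p-value and Benjamini-Hochberg adjusted p-value are used as given.

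From these, group means over enrichment gave the implied IgG. Log2(normalised reads + 1) was fitted with limma 3.58.1 (R 4.3.3) over all sites of a table and tested on simulated data. Genes are GENCODE M21. Per gene and table, text names all sites if 3 or fewer, otherwise chiefly the 3 of smallest adjusted p and the largest change; promoter and overlapping sites were added after their values were seen. The genes and lists were chosen with earlier results of these data known. Alternatives were other p limits, regions, pseudocounts, scalings and libraries left out. No genome sequence was used here, so repeated sequence was measured in transcripts.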

Additional observations from a re-analysis of the deposited data

Results flagged for a closer look

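At named sites with 4 libraries a group, 94 groups of values were examined for a library far from the others, and 4 were found, where chance marks about 1 in 20. Control library 34 was far above the other controls at the Sprr2a2 site chr3:92219401-92220400 in the resilient H3K27me1 table, with 91.75 reads. Susceptible library 50 was far above its group at the C130026I21Rik site chr1:85168401-85169400 in the H3K27me2 table, with 125.67 reads. Resilient library 60 was far above its group at the Sfi1 sites chr11:3131401-3133300, with 225.49 reads, and chr11:3183801-3188500, with 2407.05 reads, in the H3K27me2 table.

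At 1 place overlapping H3K27me2 sites moved in opposite directions in every library. In C130026I21Rik all 4 susceptible libraries lay above the control mean at chr1:85113201-85114400, a log2 change of 0.24 in the authors' deposited table, and all 4 resilient libraries lay below it at chr1:85112901-85113900, a log2 change of -0.29. At the susceptible site library 59 was barely above the control mean, at 206.55 against 204.76 reads. The groups overlapped there, with a change of 0.25 ± 0.17 (SE), and did not overlap at the resilient site. The difference was not tested, and both changes are against the same control libraries.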

How the results depend on the processing

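Among the values that answer a comparison, 225 alternatives left the value within its spread or count limit, 13 moved it and 3 reversed its sign. Without control libraries 55 and 58, added after the values were seen, the lower H3K27me2 sites fell from 10 to 6 in the susceptible table, and the median change became 0.073 there and -0.059 in the resilient table. TMM and median-of-ratios factors, computed over sites that were listed because they differ, moved the median of all sites by -0.35 and -0.29 (susceptible H3K27me2), -0.41 and -0.39 (resilient H3K27me2) and -0.62 and -0.63 (ELS). The medians of the genes' sites then became -0.56 and -0.51, -0.70 and -0.68, and -0.58 and -0.58. Under the same factors the leading sites turned negative at C130026I21Rik (-0.072 and -0.016, susceptible H3K27me2), Sprr2a2 (-0.15 and -0.13, resilient H3K27me2), and in ELS at Sfi1 (-0.60 and -0.61) and C130026I21Rik (-0.47 and -0.48).

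Leaving out 1 library at a time gave medians of -0.29 to -0.19 (susceptible H3K27me1), 0.17 to 0.36 (resilient H3K27me1, lowest without control 28), -0.30 to -0.07 and -0.35 to -0.17 (susceptible and resilient H3K27me2, smallest without control 55) and 0.012 to 0.077 (ELS, smallest without library 48). The coefficient of variation of susceptible H3K27me1 libraries ranged from 11.7% (without library 29) to 19.8%. The leading ELS Sfi1 site ranged from -0.0072 (without library 41) to 0.061. Taking 1 leading site per gene, the median enrichment over IgG went from 1.845 to 2.25 in resilient H3K27me1 libraries. In resilient H3K27me2 libraries it went from 1.5 to 1.32. In the susceptible H3K27me2 table it went from 0.485 to 1.75 (stressed) and from 0.695 to 1.70 (control). Both groups there moved from below to above IgG, and the stressed group from under to over the control. The cause of these shifts was not tested. Count models on recovered reads were not run, and words from a genome were replaced by words from transcripts, where 36 and 75 bases, overlapping models left out, gave 5.23% and 0.145% for Sfi1, 2.67% and 0.284% for Drg1, 27.8% and 12.9% for C130026I21Rik, 69.1% and 44.8% for Sprr2a2 and 0 for Mroh2a. No paired analysis was possible because the groups share no library numbers. At 5 to 7.78 reads per bin, the ELS libraries limit what low sites can show.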
